A study of Mus musculus with 4 samples.

Results

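The collagen genes are the protein-coding genes whose GENCODE M21 symbol has the form Col, a number, a and a number. The rule found 44 of the 54532 genes in the files, and all 44 had reads in all 4 libraries. The files came from RNA sequencing of brain tissue of C57BL/6 mice in 4 groups of 1 library each: naive and tumor-bearing young mice, and naive and tumor-bearing old mice. Tumor-bearing mice received 50000 GL261 cells, a glioma line of C57BL/6 origin, by intracranial engraftment, and day 21 was the time of collection. By its label the tissue is extra-tumoral, and the files hold no direct measure of how many tumor cells it contained. Young mice were 8 to 12 weeks old, and old mice are listed as 8 to 90 weeks old, a range that takes in the young one. All 4 libraries, the naive ones included, carry a GL261 tag, and the group tag gives which mice were naive. How many mice stand behind a library is not stated by the labels, and with 1 library a group no difference below has a replicate check.

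Collagens are secreted or membrane-bound proteins in which chains with a repeating glycine-X-Y sequence wind into a triple helix. Fibrillar collagens build fibers, type IV collagens form the mesh of basement membranes, type VI collagens form beaded filaments next to cells, and fibril-associated collagens sit on the surface of fibers. In normal brain, collagen is found mainly in the meninges, the choroid plexus and the basement membrane of blood vessels, while several of the smaller collagens are made by neurons. Types II, IX and XI are best known from cartilage, where they share a fibril.

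Levels are FPKM, the fragments of a gene divided by its length in kilobases and by the depth of the library, and lists of 4 values run in the order young naive, young tumor-bearing, old naive, old tumor-bearing. The libraries held between 19571357 and 23266479 fragments in genes. Differences are log2 ratios of FPKM + 0.1 among genes that reach 1 FPKM in a library of the comparison, called the floor, and genes at 1 or more on this scale are counted as at least 2-fold apart. A fold is the ratio of FPKM alone, followed by its exact 95% interval, which covers counting error only and not the spread between mice. A fold just past 2 can therefore miss the count. This held for Col24a1, Col27a1 and Col9a2 between young tumor-bearing and young naive tissue, and for Col9a3 between the old ones. It also held for Col19a1 between the naive libraries and for Col27a1 between the tumor-bearing ones. Neuronal, astrocyte and oligodendrocyte markers were present in all 4 libraries, but the 12 neuronal markers summed to 1416, 1239, 1771 and 352 FPKM and the 10 choroid plexus markers to 421, 406, 8.37 and 466 FPKM. Mitochondrial genes held 5.51%, 4.72%, 5.44% and 2.12% of the fragments. These values move with some of the collagen results and stand beside them below. In tissue libraries, fewer cells of a type and less RNA per cell cannot be told apart.

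Collagen RNA was scarce in naive young brain and several-fold more abundant in old tumor-bearing brain. All 44 genes together held 0.0419% of the fragments in genes in the young naive library (0.0411 to 0.0427, exact binomial), 0.0819% in the young tumor-bearing (0.0807 to 0.0831), 0.0715% in the old naive (0.0703 to 0.0727) and 0.286% in the old tumor-bearing library (0.284 to 0.288). Their summed level was 66.9, 127, 133 and 358 FPKM. Col2a1 alone accounted for 78.9 FPKM of the last sum, which was 280 FPKM without it. The number of collagen genes at 1 FPKM or more was 19, 28, 24 and 26, and 32 genes reached that level in at least 1 library. The old tumor-bearing library held the highest value of 17 genes, the old naive of 15, the young tumor-bearing of 11 and the young naive of 1.

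The make-up of the collagen RNA differed between the libraries. In the young naive library the leading genes were Col6a1, Col4a2 and Col4a1, with 30.2% of the summed collagen FPKM, and fibrillar, type IV and fibril-associated genes each held between 20.4% and 21.0%. The same 3 genes led in the young tumor-bearing library (27.7%) and in the old naive library (49.2%). In the old naive library type VI genes held 33.3% of the sum, against 15.2% in the young naive one, and Col6a1 alone 27.2%. In the old tumor-bearing library Col2a1, Col9a2 and Col16a1 led with 51.1%. There the fibrillar genes held 37.7% and the fibril-associated genes 39.0%, while type VI genes had 2.96% and transmembrane collagens 0.770%.

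**Figure D1:**
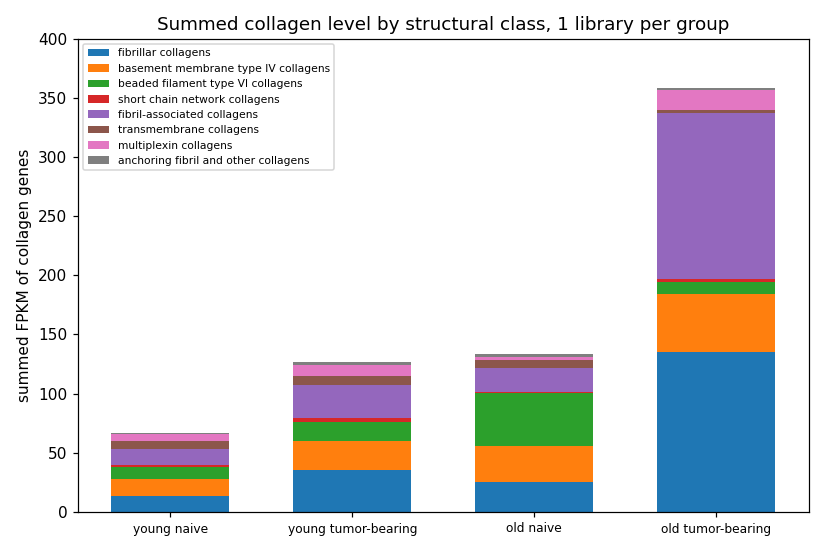
Summed FPKM of the 44 collagen genes in each library (1 library per group), stacked by structural class. The sums are 66.9, 127, 133 and 358 FPKM, and the type VI layer is largest in the old naive library while the fibrillar and fibril-associated layers dominate the old tumor-bearing one.

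**Figure D2:**
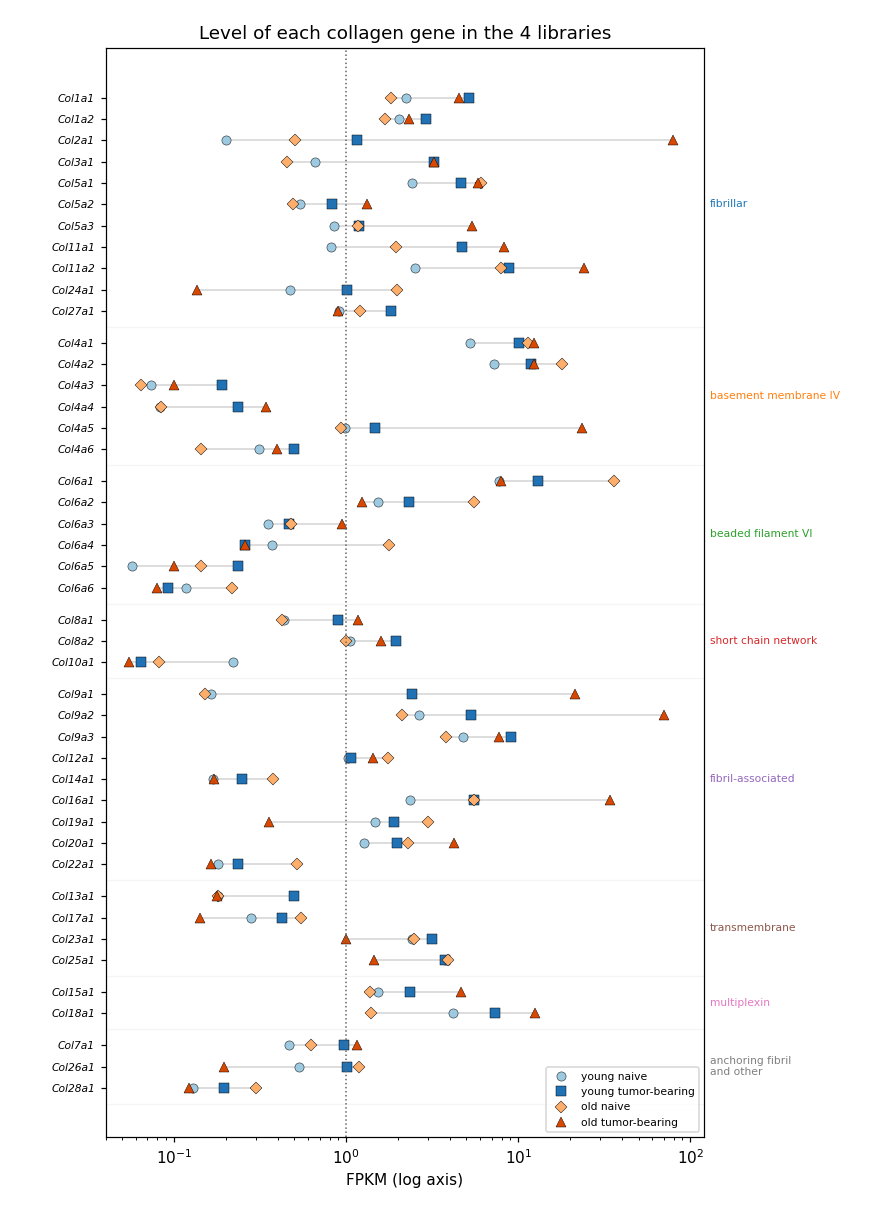
Level of each collagen gene in FPKM (log axis) in the 4 libraries, by structural class, with a dotted line at 1 FPKM and a grey line joining the lowest and highest value. Col2a1, Col9a1 and Col9a2 span the widest ranges, with the old tumor-bearing library on the far right.

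The first comparison set young tumor-bearing against young naive tissue. Collagen genes were higher nearly throughout the family, mostly by less than 2-fold, and the cartilage-type and fibril-forming genes stood highest. Of 28 genes above the floor, 7 were higher by 2-fold or more and 0 lower, with a median log2 ratio of 0.83. Among all 15500 genes above the floor 5.05% were higher to that degree and 1.85% lower (median -0.01), and among the 12875 protein-coding ones 2.31% and 0.35% (median -0.02). The counting interval lay above 1 for 26 of the 28 collagen genes and below 1 for 0, against 26.1% and 31.1% of protein-coding genes above the floor. Col12a1 and Col25a1 were the other 2, at 1.04-fold higher (0.890 to 1.22) and 1.01-fold lower (0.919 to 1.10). Markers of fibroblasts and meninges, the cells that make most collagen, had a median of 0.18 over 9 measured members, 1 of them at least 2-fold higher, and Dcn and Lum, defining genes of fibroblasts, were at 4.38 and 5.12 FPKM and at 1.36 and 1.55 FPKM. The medians were -0.05 for endothelial markers and 0.03 for pericyte and smooth muscle markers. All 10 microglia and macrophage markers had ratios above 1, with a median of 0.55 and 8 counting intervals above 1. Lyz2, the lysozyme of macrophages, was the 1 gene of that list past 2-fold, at 6.47 and 28.2 FPKM (4.37-fold, 3.70 to 5.18). Neuronal markers had a median of -0.20, with 10 of 12 intervals below 1, and oligodendrocyte markers one of -0.10, with 6 of 8 below. The part of these cells in the result was not tested.

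Among the fibrillar collagens, 5 of the 10 above the floor were at least 2-fold higher in young tumor-bearing tissue. Col3a1, the main partner of type I collagen in soft tissue, stood at 0.663, 3.25, 0.456 and 3.24 FPKM. In the deposited FPKM both tumor-bearing libraries were high and alike, and both naive ones low. The ratio was 4.90-fold in young mice (4.06 to 5.96) and 7.11-fold in old mice (5.56 to 9.22). Col1a1, the main chain of type I collagen, had 2.22, 5.19, 1.82 and 4.55 FPKM, 2.34-fold higher in young (2.04 to 2.69) and 2.50-fold in old tumor-bearing tissue (2.12 to 2.95). Its partner chain Col1a2, at 2.03, 2.93, 1.69 and 2.32 FPKM, differed less, 1.44-fold (1.28 to 1.62) and 1.37-fold (1.20 to 1.57). Col1a1, Col1a2 and Col3a1 thus all had the tumor-bearing library above the naive one at either age. Which of the tumor-bearing libraries stood higher turned with the scaling for each of these genes.

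Type V collagen regulates the width of type I fibers, and its 3 genes went apart. Col5a1 was at 2.41, 4.63, 6.08 and 5.84 FPKM, low in the young naive library only. Col5a3 was at 0.848, 1.18, 1.17 and 5.40 FPKM, so that the old tumor-bearing library stood alone, 4.60-fold above old naive (3.81 to 5.60). Col5a2 had 0.541, 0.824, 0.493 and 1.32 FPKM. Col5a1 was 1.92-fold higher in young tumor-bearing tissue (1.70 to 2.17), whereas in old mice the ratio was 1.04-fold lower (0.950 to 1.14), a direction that turned with the scaling of the libraries.

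The second comparison, tumor-bearing against naive tissue of old mice, split the family. Of 32 genes above the floor 14 were higher and 8 lower by 2-fold or more, with a median log2 ratio of 0.83 and a range from -3.14 to 7.03. Over all 16488 genes above the floor 20.6% were higher and 31.4% lower (median -0.31), and over the 13582 protein-coding ones 19.3% and 29.7% (median -0.28). The counting interval lay above 1 for 20 and below 1 for 11 of the 32 collagen genes, against 35.8% and 53.3% of protein-coding genes. In both counts the higher collagen genes exceeded the share among protein-coding genes, and the lower ones did not. Other scalings of the libraries raised the median of all genes by 0.37 to 0.56, and scaled by fragments in genes the split was 18 higher and 6 lower. The shares among all genes were counted in the deposited FPKM only. Col27a1, a fibrillar collagen, stood at 0.905, 1.82, 1.21 and 0.902 FPKM and Col12a1, a fibril-associated one, at 1.02, 1.06, 1.76 and 1.43 FPKM. The directions of Col5a1, Col27a1, Col4a2 and Col12a1, all less than 2-fold apart, turned under at least 1 scaling. The other 28 genes above the floor kept theirs.

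Among the cartilage-type collagens, Col2a1, Col9a1 and Col9a2 had the largest ratios of the family in the old comparison. Col2a1, the chain of type II collagen (ENSMUSG00000022483, mm10 chromosome 15, 97975602 to 98004695, minus strand), had 38, 214, 73 and 16949 reads, or 0.201, 1.16, 0.505 and 78.9 FPKM. It was 5.76-fold higher in young (4.06 to 8.36) and 156-fold higher in old tumor-bearing tissue (124 to 199). Col9a1, a chain of type IX collagen, which coats type II fibers (ENSMUSG00000026147, chromosome 1, 24177610 to 24252684, plus strand), stood at 0.164, 2.41, 0.151 and 21.3 FPKM. Both naive libraries held few reads of it (17 and 12), and the ratios were 14.7-fold in young (8.98 to 25.6) and 140-fold in old mice (80.3 to 272). Col9a2, the second chain (ENSMUSG00000028626, chromosome 4, 121039385 to 121055322, plus strand), was at 2.64, 5.28, 2.11 and 70.3 FPKM, 2.002-fold (1.66 to 2.43) and 33.4-fold higher (27.4 to 41.0). Col9a3, the remaining chain, was at 4.79, 9.12, 3.82 and 7.72 FPKM. It was 1.91-fold (1.68 to 2.17) and 2.02-fold higher (1.74 to 2.36), so it did not share the large ratio of the other type IX chains in old mice.

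Type XI collagen forms the core of cartilage fibrils, and its chains were higher with tumor at both ages and higher with age in naive brain. Col11a1 was at 0.817, 4.70, 1.94 and 8.27 FPKM, 5.75-fold higher in young (4.97 to 6.68) and 4.26-fold in old tumor-bearing tissue (3.83 to 4.76). Col11a2 was at 2.52, 8.83, 7.98 and 24.1 FPKM, 3.50-fold (3.11 to 3.96) and 3.02-fold higher (2.80 to 3.26). For both the young naive library was lowest and the old tumor-bearing one highest. Col10a1, the collagen of cartilage that is turning to bone, had 14, 4, 4 and 4 reads or at most 0.219 FPKM.

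Markers of bone and cartilage cells other than collagens were mostly low. Of the 12 on the list 4 were above the floor in the old comparison, 1 of them 2-fold or more higher and 2 lower, and the list summed to 15.2, 19.6, 20.1 and 21.3 FPKM. Acan, the main cartilage proteoglycan, was at 0.884, 0.750, 0.753 and 0.155 FPKM, and Matn1, a cartilage matrix protein, at 0.342, 0.04998, 0.128 and 0.172 FPKM. Sox9, a transcription factor of cartilage that astrocytes also express, was at 9.83, 9.82, 11.3 and 5.16 FPKM. Cnmd, a cartilage protein, was at 0.982, 4.86, 0.312 and 0.980 FPKM. It was 4.95-fold higher in young tumor-bearing tissue (3.46 to 7.25), the 1 gene past 2-fold among the 4 of the list above the floor there, and 3.14-fold higher in old (1.51 to 7.34), where it was under the floor. Bglap2, an osteocalcin gene, was the higher one, with 0 reads in the other 3 libraries and 11.4 FPKM in the old tumor-bearing library, at least 28.0-fold above old naive with a floor of 3 reads. Bglap2 has a near-identical copy, Bglap, so how its reads were split is uncertain. The part of bone or cartilage cells in the collagen values was not tested.

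Further genes of basement membranes and fiber surfaces had ratios above 1 in old tumor-bearing tissue, from 25.1-fold for Col4a5 to 1.60-fold for Col8a2. Col4a5, a type IV chain of specialized basement membranes (ENSMUSG00000031274, chromosome X, 141475385 to 141689234, plus strand), was at 0.990, 1.47, 0.932 and 23.4 FPKM. The other 3 libraries were between 0.932 and 1.47 FPKM and the old tumor-bearing one stood alone, 25.1-fold above old naive (20.5 to 31.0). Col16a1, a fibril-associated collagen, was at 2.33, 5.50, 5.54 and 34.0 FPKM, 2.36-fold higher in young (2.06 to 2.69) and 6.14-fold in old tumor-bearing tissue (5.64 to 6.70). Col20a1, of the same class, had 1.27, 1.96, 2.27 and 4.21 FPKM, 1.85-fold above old naive (1.56 to 2.20). Col8a1 and Col8a2, short chains of vascular and corneal matrix, stood at 0.437, 0.900, 0.424 and 1.16 FPKM and at 1.05, 1.96, 0.997 and 1.59 FPKM, above the naive level of their age in both tumor-bearing libraries. In old mice Col8a1 was 2.74-fold (2.02 to 3.79) and Col8a2 1.60-fold higher (1.20 to 2.14). Col7a1, the anchoring fibril collagen, was at 0.466, 0.967, 0.628 and 1.16 FPKM, 1.85-fold above old naive (1.47 to 2.35).

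Col18a1 and Col15a1, multiplexins of vessel and epithelial basement membranes, were higher with tumor at both ages. Col18a1, the precursor of endostatin, was at 4.15, 7.34, 1.39 and 12.6 FPKM, 1.77-fold higher in young (1.60 to 1.96) and 9.02-fold in old tumor-bearing tissue (7.65 to 10.7). The old naive library was low as well as the old tumor-bearing one high, since old naive stood 2.98-fold below young naive (2.49 to 3.58). The same library was the one almost without choroid plexus RNA. Its Ttr, the hormone carrier made by that epithelium, was at 4.88 FPKM against 402, 383 and 445 FPKM in the others, and 9 of 9 measured choroid plexus markers were at least 2-fold below young naive. The part of that tissue in the Col18a1 values was not tested. Col15a1 was at 1.54, 2.35, 1.37 and 4.64 FPKM, 3.39-fold higher in old tumor-bearing tissue (2.82 to 4.10), with the naive libraries 1.13-fold apart (0.901 to 1.41).

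Type VI, transmembrane and some other collagens were lower in old tumor-bearing than in old naive tissue. By count such genes were no more frequent in the family than elsewhere, 8 of 32 at least 2-fold lower against 29.7% of protein-coding genes. Col6a1, a type VI chain (ENSMUSG00000001119, chromosome 10, 76708792 to 76726168, minus strand), was at 7.72, 13.1, 36.2 and 7.98 FPKM, and Col6a2, its neighbor on that chromosome, at 1.53, 2.31, 5.54 and 1.24 FPKM. For both the old naive library was the high one, and the old tumor-bearing value was near that of young naive. Col6a1 was 4.54-fold lower (4.19 to 4.92) and Col6a2 4.47-fold lower (3.86 to 5.20). Col6a4 had 0.373, 0.258, 1.78 and 0.257 FPKM, with old naive again alone and old tumor-bearing tissue 6.91-fold below it (5.08 to 9.54). Col6a3, the long type VI chain, went the other way at 0.352, 0.468, 0.475 and 0.942 FPKM, 1.98-fold higher in old tumor-bearing tissue (1.55 to 2.55).

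The transmembrane collagens Col23a1 and Col25a1 stood at 2.40, 3.15, 2.46 and 0.997 FPKM and at 3.77, 3.75, 3.93 and 1.44 FPKM. Only the old tumor-bearing library was low, by 2.47-fold (1.98 to 3.09) and 2.73-fold (2.42 to 3.07) from old naive. Col25a1 is a neuronal membrane collagen that binds amyloid. Col19a1, a fibril-associated collagen of interneurons, was at 1.46, 1.89, 2.99 and 0.356 FPKM, 8.40-fold lower (6.32 to 11.3). Col24a1, a fibrillar collagen (ENSMUSG00000028197, chromosome 3, 145292472 to 145552011, plus strand), was at 0.468, 1.01, 1.98 and 0.135 FPKM, 14.6-fold lower (9.59 to 23.3). Col26a1 had 0.532, 1.01, 1.18 and 0.195 FPKM, 6.07-fold lower (4.21 to 8.94). In the same comparison 11 of 12 neuronal markers were at least 2-fold lower (median log2 ratio -2.52), 6 of 8 astrocyte markers (median -1.47) and 5 of 8 measured pericyte and smooth muscle markers (median -1.34). The part of these cells in the lower collagen values was not tested.

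**Figure D3:**
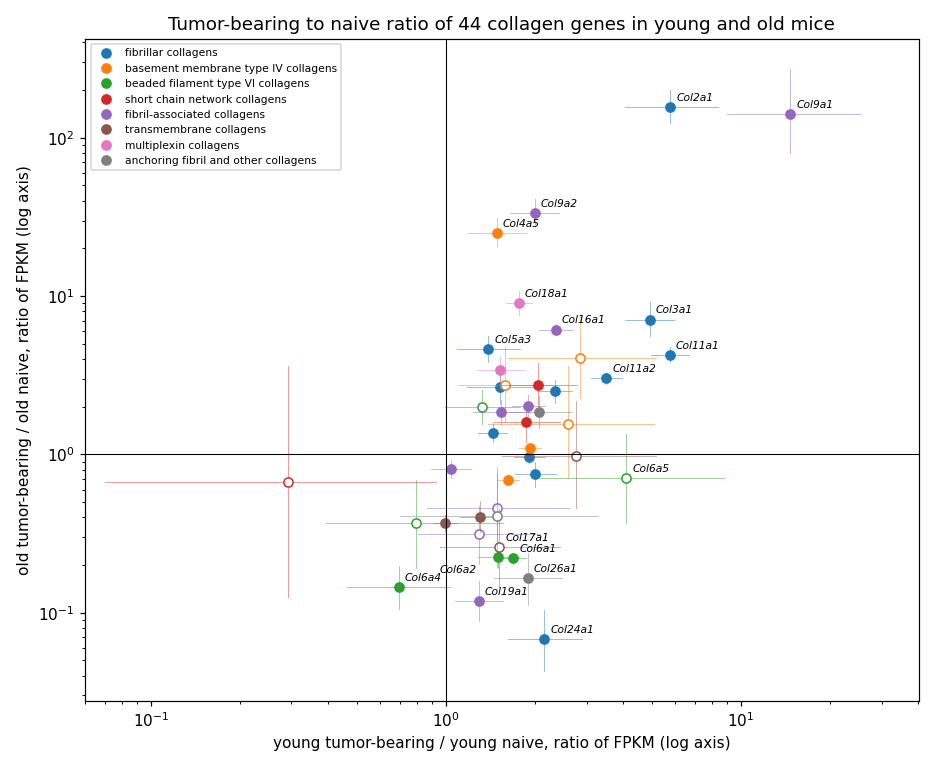
Tumor-bearing to naive ratio of FPKM in young mice (horizontal, log axis) and in old mice (vertical, log axis) for 44 collagen genes, colored by class. Lines are exact 95% counting intervals, open symbols are genes under 1 FPKM in each comparison, and most points lie to the right of 1 while the vertical axis runs from 14.6-fold lower (Col24a1) to 156-fold higher (Col2a1).

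Set side by side, the age groups shared part of the pattern. Both counting intervals lay above 1 for 22 of the 44 genes, 20 of them among the 32 above the floor, and they included all 6 chains of types II, IX and XI and Col1a1, Col1a2, Col3a1, Col4a1, Col15a1 and Col18a1. For 8 genes the interval lay above 1 in young and below 1 in old mice, for 0 the other way, and for the remaining 14 at least 1 of the intervals included 1. The 8 genes with opposite intervals were all above the floor. Among the 13911 protein-coding genes above the floor, 13.3% had both intervals above 1, 11.5% had the young one above and the old one below, and 5.78% the reverse. On the log2 scale the old ratio exceeded the young one by at least 1 for 8 of 32 genes and fell short of it by at least 1 for 10, while 18.1% and 28.9% of the 13911 protein-coding genes did so. The balance of these counts turned with the scaling, to 9 and 7 under 3 of the 4 other scalings and to 9 and 8 with equal FPKM totals, and to 7 and 3 with a floor of 5 FPKM. The excess was 4.97 for Col2a1, 4.02 for Col9a2, 3.98 for Col4a5, 3.16 for Col9a1, 2.28 for Col18a1, 1.67 for Col5a3, 1.40 for Col16a1 and 1.11 for Col15a1. With 1 library a group, the difference between ages was not tested.

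Promoter sequences are shown for 4 genes at least 2-fold apart in the old comparison and for Col4a6, the neighbor of Col4a5, to set the sequence beside the unequal values. They are the bases upstream of a RefSeq start on GRCm38.p6 (the mm10 assembly), 250 bases each except for Col4a5, where 216 bases are shown that end 35 bases before the start, because M21 annotates the rest as exon. RefSeq windows were matched for 35 of the 44 genes, 38 windows in all. No entry was matched for Col12a1, Col14a1, Col1a1, Col22a1, Col26a1, Col2a1, Col4a3, Col5a2 and Col9a3. Capitals mark matches on either strand to TATAAA, to CCAAT, to GGGCGG, or to ACAAAG or TCAAAG or ACAATG or TCAATG, the core of SOX factor motifs. Each motif was searched by itself, also where it overlapped another.
Col9a1, chr1:24177360-24177609, plus strand: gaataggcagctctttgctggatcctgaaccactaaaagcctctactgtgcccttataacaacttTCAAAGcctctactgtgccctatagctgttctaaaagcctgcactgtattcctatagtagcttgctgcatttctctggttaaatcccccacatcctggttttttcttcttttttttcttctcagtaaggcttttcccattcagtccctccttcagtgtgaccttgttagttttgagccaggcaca
Col11a2, chr17:34038888-34039137, plus strand: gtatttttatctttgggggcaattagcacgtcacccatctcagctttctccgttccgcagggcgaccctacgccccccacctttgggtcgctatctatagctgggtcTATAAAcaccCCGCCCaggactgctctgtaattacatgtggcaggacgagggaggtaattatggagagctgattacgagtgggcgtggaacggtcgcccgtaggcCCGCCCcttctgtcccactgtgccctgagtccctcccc
Col4a5, chrX:141475169-141475384, plus strand: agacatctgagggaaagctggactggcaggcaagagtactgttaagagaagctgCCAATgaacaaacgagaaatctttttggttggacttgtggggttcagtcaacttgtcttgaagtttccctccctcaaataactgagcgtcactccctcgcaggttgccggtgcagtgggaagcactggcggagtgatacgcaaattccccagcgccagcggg
Col4a6, chrX:141474077-141474326, minus strand: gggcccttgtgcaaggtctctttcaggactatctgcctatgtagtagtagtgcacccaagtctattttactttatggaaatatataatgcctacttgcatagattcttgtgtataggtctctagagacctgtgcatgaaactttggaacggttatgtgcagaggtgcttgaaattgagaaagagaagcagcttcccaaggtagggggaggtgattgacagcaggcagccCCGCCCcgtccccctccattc
Col24a1, chr3:145292222-145292471, plus strand: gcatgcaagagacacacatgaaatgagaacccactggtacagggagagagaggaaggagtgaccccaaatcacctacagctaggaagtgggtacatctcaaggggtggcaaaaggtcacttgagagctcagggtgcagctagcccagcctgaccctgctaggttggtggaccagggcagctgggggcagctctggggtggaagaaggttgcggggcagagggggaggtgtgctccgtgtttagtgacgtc

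None of the 4 motifs was found in all 5 printed sequences. The printed window of Col9a1, which was 140-fold higher in old tumor-bearing tissue, had 43.6% G and C and a TCAAAG match 185 bases before the start. RefSeq gives a second start for Col9a1, and that window (chromosome 1, 24194953 to 24195202) had 56% G and C, a CCAAT match 18 bases before the start and 0 SOX cores. Col11a2 had a TATAAA and 2 GC box matches at 57.6% G and C. Col4a6 had 1 GC box match. Col4a5 had 1 CCAAT match in the printed bases and 1 GC box match in the stretch not shown, 30 bases before the start. Col24a1, 14.6-fold lower, held 0 of the motifs. Over the 38 collagen windows, 13.2% held TATAAA, 34.2% CCAAT, 57.9% GGGCGG and 31.6% a SOX core, and the shares among all 32851 windows were 12.4%, 33.8%, 32.7% and 39.4%. The median G and C content was 59% in collagen windows and 52.4% in all. Such matches describe the sequence and are not shown to be bound.

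The third comparison, old against young naive tissue, found the type VI genes above the floor and the type IV genes Col4a1 and Col4a2 higher in old brain and Col18a1 lower. Of 25 genes above the floor 11 were higher and 1 lower by 2-fold or more, with a median log2 ratio of 0.79. Among the 11, Col6a4, Col24a1, Col11a1 and Col26a1 were under 1 FPKM in young naive tissue and passed the floor only through the old naive library. Among all 15419 genes 6.71% were higher and 4.93% lower (median 0.06), and among 12745 protein-coding ones 3.26% and 3.07% (median 0.04). The counting interval lay above 1 for 16 and below 1 for 4 of the 25, against 37.4% and 30.1%. With equal FPKM totals, which lowered the median of all genes by 0.22, the number at least 2-fold higher was 7.

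All 3 type VI genes above the floor were at least 2-fold higher in old naive tissue, and for Col6a4 this follows in part from the floor. Its values were 0.373 FPKM in young naive and 1.78 FPKM in old naive tissue. Col6a1 was 4.70-fold higher (4.31 to 5.12), Col6a2 3.61-fold (3.13 to 4.18) and Col6a4 4.76-fold (3.61 to 6.37). Col6a3 was 1.35-fold higher (0.994 to 1.84), within counting error. The main basement membrane chains followed at a smaller size. Col4a1 had 5.26, 10.1, 11.3 and 12.4 FPKM and Col4a2 7.24, 11.8, 17.9 and 12.4 FPKM, 2.15-fold (1.97 to 2.35) and 2.48-fold higher in old naive tissue (2.29 to 2.68). The other type IV genes did not share this, with Col4a5 1.06-fold lower (0.813 to 1.39) and Col4a6, under the floor, 2.17-fold lower (1.25 to 3.94). The young naive library was the low one for Col4a1 and Col4a2, and the young tumor-bearing one was 1.93-fold (1.77 to 2.10) and 1.63-fold above it (1.50 to 1.77). In old tumor-bearing tissue Col4a1 was 1.09-fold above old naive (1.02 to 1.17) and Col4a2 1.45-fold below it (1.36 to 1.54), the latter a direction that turned with the scaling.

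The other genes at least 2-fold higher in old naive tissue were Col24a1 at 4.22-fold (3.24 to 5.57), Col11a2 at 3.17-fold (2.79 to 3.60), Col5a1 at 2.52-fold (2.23 to 2.84), Col11a1 at 2.37-fold (2.003 to 2.82), Col16a1 at 2.37-fold (2.07 to 2.73) and Col26a1 at 2.22-fold (1.70 to 2.91). The type I chains were not among them. Col1a1 was 1.22-fold lower (1.01 to 1.47) and Col1a2 1.20-fold lower (1.05 to 1.39) in old naive brain. Col9a2, Col9a3, Col15a1 and Col8a2 also had lower values in old naive tissue, by at most 1.25-fold. Markers of endothelial cells had a median log2 ratio of -0.08, those of pericytes and smooth muscle 0.20 and those of fibroblasts and meninges 0.08, with 0 of 10, 0 of 8 and 1 of 9 measured genes at least 2-fold higher. Other lists differed more between the naive libraries. All 9 measured choroid plexus markers were at least 2-fold lower in old naive tissue (median -2.57). The old tumor-bearing library did not share this, with a choroid plexus sum of 466 FPKM against 8.37 FPKM in old naive tissue. The median was -0.66 for the 8 oligodendrocyte markers, whose counting intervals all lay below 1, and -0.43 for the 8 astrocyte markers. For the 10 microglia and macrophage markers it was 0.47, and 8 of their intervals lay above 1. The part of these cells in the collagen values was not tested.

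**Figure D4:**
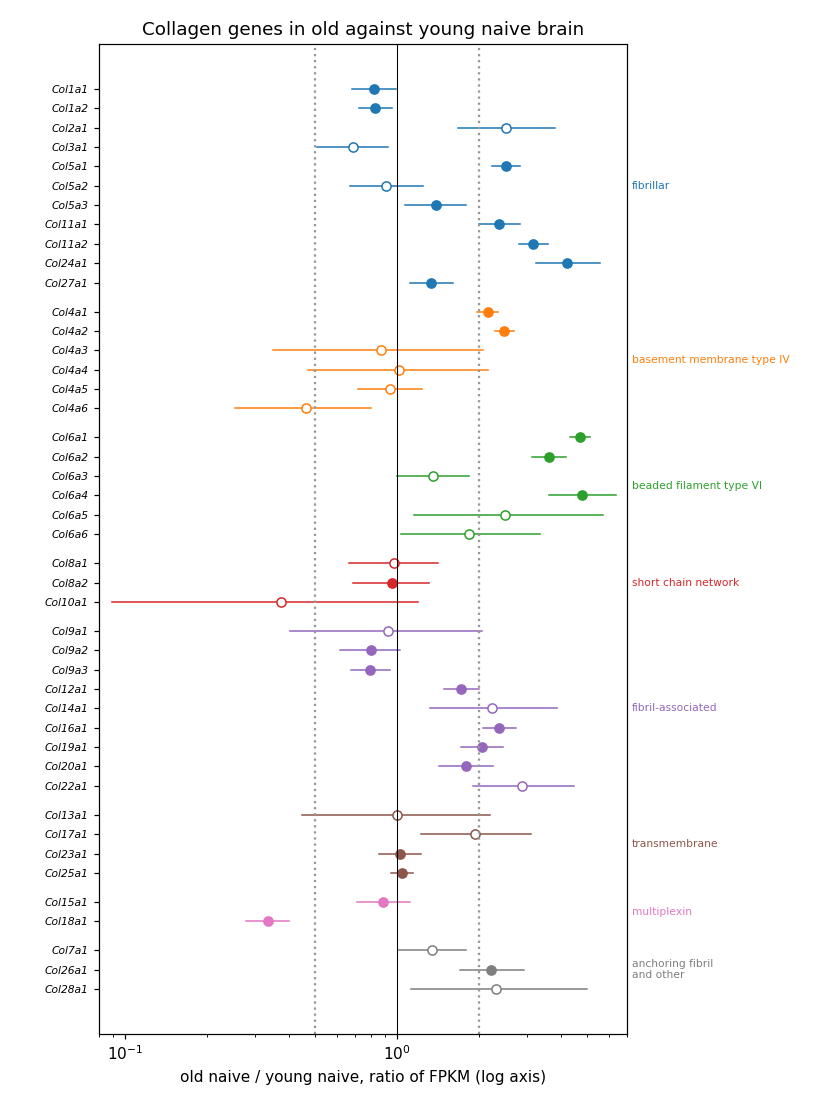
Ratio of old naive to young naive FPKM (log axis) for each collagen gene, by structural class, with exact 95% counting intervals, dotted lines at 2-fold, and open symbols for genes under 1 FPKM in both libraries. Col6a1, Col6a2, Col6a4 and Col24a1 lie farthest right among the filled symbols and Col18a1 farthest left.

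In the fourth comparison, old against young tumor-bearing tissue, 8 of 31 genes passed 2-fold upward and 5 downward, with a median log2 ratio of 0.28, while 19% and 29.8% of all 16562 genes were so (median -0.28), and 17.6% and 27.9% of the 13656 protein-coding ones. The counting interval lay above 1 for 16 and below 1 for 11 collagen genes, against 35.7% and 53.2%. Scaled by fragments in genes, which raised the median of all genes by 0.37, the counts were 11 and 4. The shares among all genes were not counted at that scaling. Col2a1 was 68.1-fold higher (59.5 to 78.3), Col4a5 15.9-fold (13.7 to 18.4), Col9a2 13.3-fold (11.9 to 14.9), Col9a1 8.83-fold (7.74 to 10.1), Col16a1 6.19-fold (5.73 to 6.69) and Col5a3 4.57-fold (3.86 to 5.44). Col3a1 differed by less than counting error in the deposited FPKM, 1.002-fold lower with an interval of 0.900 to 1.12. Under the other scalings its log2 ratio was 0.14 to 0.38. Of the 31 genes, 5 turned direction under at least 1 scaling. This comparison shares its libraries with the earlier ones and adds no separate evidence.

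Chains that enter the same collagen molecule allowed a comparison inside each library, free of the scaling between libraries. Type I collagen holds more Col1a1 than Col1a2 chains. The ratio of Col1a1 to Col1a2 FPKM was 1.09 (0.945 to 1.26), 1.77 (1.60 to 1.97), 1.08 (0.897 to 1.30) and 1.96 (1.76 to 2.19), so both tumor-bearing libraries lay above both naive ones with intervals that did not overlap. The level of this ratio, though not its order, depends on gene length. The deposited FPKM used 12426 bases for Col1a2, whose longest protein-coding transcript has 5348, and with transcript lengths the ratios became 0.521, 0.845, 0.514 and 0.936. Col4a1 and Col4a2, which form the common type IV trimer, had ratios of 0.727 (0.661 to 0.798), 0.860 (0.800 to 0.923), 0.631 (0.588 to 0.678) and 0.999 (0.939 to 1.06). Col6a1 stood above Col6a2 by 5.03 to 6.54 times in all 4 libraries. The ratio of Col6a3 to Col6a1 was 0.0456, 0.0358, 0.0131 and 0.118, lowest in old naive tissue and highest in old tumor-bearing tissue.

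The widest changes in chain ratio were in types IV and IX. Col9a2 to Col9a3 was 0.551, 0.579, 0.552 and 9.10 (8.41 to 9.87), so 3 libraries matched and the old tumor-bearing one differed. Col9a1 to Col9a3 was 0.0343 and 0.0397 in the naive libraries, 0.264 in young and 2.75 in old tumor-bearing tissue. Col4a5 to Col4a6 was 3.16 (2.28 to 4.46), 2.97 (2.28 to 3.91), 6.46 (3.88 to 11.4) and 59.3 (47.1 to 75.9). The ratio of Col11a2 to Col11a1 ranged from 1.88 in young tumor-bearing to 4.11 in old naive tissue, and from 1.28 to 2.79 with transcript lengths. Pairs other than Col1a1 to Col1a2, Col4a1 to Col4a2 and the type VI pairs were chosen after their values were seen.

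**Figure D5:**
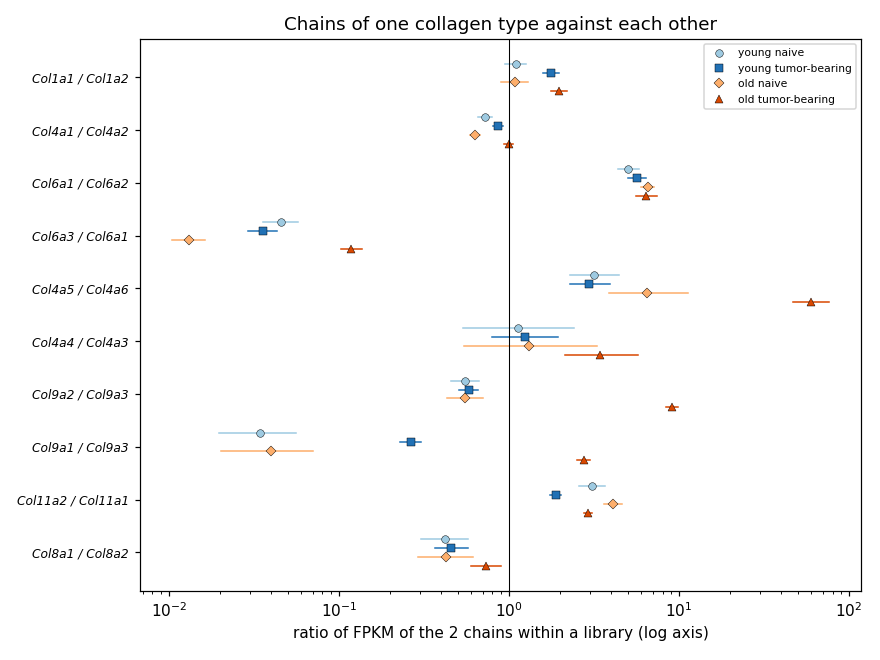
Ratio of FPKM between chains of one collagen type within each library (log axis), with exact 95% counting intervals. The old tumor-bearing library stands apart for Col4a5 to Col4a6, Col9a2 to Col9a3 and Col9a1 to Col9a3, and both tumor-bearing libraries lie above the naive ones for Col1a1 to Col1a2.

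The position of the type IV genes gives these ratios context. The 6 type IV genes lie in 3 pairs whose members run away from each other. The annotated starts of Col4a1 and Col4a2 on chromosome 8 are 21 bases apart and their first exons overlap by 22 bases, those of Col4a3 and Col4a4 on chromosome 1 are 72 bases apart, and those of Col4a5 and Col4a6 on chromosome X 1309 bases apart. In the old comparison the ratios within a pair were 1.09-fold higher and 1.45-fold lower for Col4a1 and Col4a2, and 25.1-fold and 2.73-fold higher for Col4a5 and Col4a6. Col4a3 and Col4a4 stayed under 1 FPKM, with at most 38 and 84 reads. Some other collagen neighbors also differed, and some moved together. Col3a1 and Col5a2 end 24614 bases from each other on chromosome 1, and there Col3a1 was 7.11-fold and Col5a2 2.68-fold higher (2.07 to 3.51). Col9a1 and Col19a1, 9205 bases apart on chromosome 1, went opposite ways, 140-fold higher and 8.40-fold lower. Col6a1 and Col6a2, 85161 bases apart on chromosome 10, were both lower, with log2 ratios of -2.17 and -2.07. The log2 ratios of Col6a4, Col6a5 and Col6a6 on chromosome 9 were -2.39, -0.27 and -0.81, with Col6a5 and Col6a6 under the floor.

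Enzymes and chaperones of collagen synthesis were higher in old tumor-bearing tissue for part of the list only. In the list of 19 folding and modifying enzymes, 0 of 18 measured genes were 2-fold apart in young mice (median log2 ratio 0.18), and 9 of 19 were higher by 2-fold or more in old mice and 0 lower (median 0.64). For this list and those that follow, the shares among all protein-coding genes above the floor were 2.31% higher and 0.35% lower in young mice and 19.3% and 29.7% in old mice. Plod2, which hydroxylates the lysines used for crosslinks, went from 1.04 FPKM in old naive to 54.3 FPKM in old tumor-bearing tissue (52.1-fold, 42.2 to 65.0). Serpinh1, the collagen chaperone HSP47, was at 6.83 and 81.5 FPKM (11.9-fold, 10.5 to 13.6), Fkbp10, a collagen prolyl isomerase, at 3.20 and 28.2 FPKM and Crtap, part of the prolyl 3-hydroxylation complex, at 3.57 and 26.8 FPKM. In young mice Crtap and Plod2 had the largest ratios of this list, 1.76-fold (1.40 to 2.22) and 1.78-fold (1.47 to 2.16).

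The next list holds enzymes and cofactors that act mostly outside the cell. Of 13 processing and crosslinking genes, 0 of 8 measured were 2-fold apart in young mice, while in old mice 4 of 9 were 2-fold or more higher and 2 lower. Pcolce, which enhances removal of the procollagen C-propeptide, was at 2.32 and 102 FPKM in old naive and old tumor-bearing tissue (44.1-fold, 37.3 to 52.5). Adamts14, a procollagen N-proteinase, was at 0.0984 and 11.6 FPKM, and its relatives Adamts2 and Adamts3 were lower, at 1.53 and 0.686 FPKM and at 4.19 and 0.816 FPKM. Lox, the founding lysyl oxidase, stayed under 1 FPKM in all 4 libraries, and Loxl3, another, went from 1.29 to 8.60 FPKM.

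Collagen receptors had 0 of 6 measured genes 2-fold apart in young and 4 of 7 at least 2-fold higher, with 0 lower, in old mice. Ddr2, a receptor kinase for fibrillar collagen, was at 1.53, 2.30, 1.80 and 16.4 FPKM, 9.13-fold above old naive (8.05 to 10.4). Itgb1, the shared chain of collagen integrins, was 3.97-fold higher (3.72 to 4.24). Of 13 basement membrane partners, 1 of 12 measured was at least 2-fold higher in young mice, and 5 of 12 were higher and 2 lower in old mice. Hspg2, which encodes perlecan, was that gene in young mice at 2.59-fold (2.25 to 2.99), and in old mice it went from 1.86 to 36.4 FPKM (19.6-fold, 17.7 to 21.6). Laminin chains differed, since Lamb1 was 8.39-fold (7.49 to 9.43) and Lama4 6.54-fold higher (5.61 to 7.67), and Lamc3 2.93-fold lower (2.34 to 3.69). Among proteins of fiber surfaces, Fn1, fibronectin, stood at 9.08 and 86.3 FPKM, Thbs2, a thrombospondin, at 1.74 and 10.3 FPKM and Fmod, a fibril-binding proteoglycan, at 7.75 and 1.38 FPKM in old naive and old tumor-bearing tissue, in a list with 3 of 12 genes at least 2-fold higher and 4 lower, counts that lie near the shares among protein-coding genes.

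Of 9 measured fibroblast and meningeal markers, 1 was higher and 4 were lower by 2-fold or more in old tumor-bearing tissue, with a median log2 ratio of -0.47. Dcn and Lum, also on the list of fiber surface proteins, were at 1.88 and 2.67 FPKM and at 0.862 and 1.53 FPKM in old naive and old tumor-bearing tissue, and Dpt had 0 reads in the latter. Slc6a13, a transporter of meningeal fibroblasts, was 10.1-fold lower (7.01 to 15.1), and Slc47a1, another transporter, was the higher one, at 2.44 and 17.6 FPKM. Microglia and macrophage markers summed to 138, 229, 202 and 905 FPKM, with 6 of 10 at least 2-fold higher and 0 lower in old tumor-bearing tissue. Endothelial markers summed to 133, 128, 125 and 186 FPKM, with 2 of 10 higher and 4 lower against the same 19.3% and 29.7%. The 2 higher ones were Ly6c1 and Slc2a1, while the median log2 ratio of the list was -0.52 and 7 of 10 counting intervals lay below 1. The sums were 825, 791, 714 and 210 FPKM for astrocyte and 1359, 1254, 944 and 643 FPKM for oligodendrocyte markers. Whether any of these cells contributed to the collagen values was not tested.

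The 12 collagen genes that stayed under 1 FPKM in all libraries were Col4a3, Col4a4, Col4a6, Col6a3, Col6a5, Col6a6, Col10a1, Col13a1, Col14a1, Col17a1, Col22a1 and Col28a1. Their lowest value was 0.055 FPKM (Col10a1, 4 reads) and their highest 0.942 FPKM (Col6a3, 262 reads). In young tumor-bearing tissue Col6a5 had 44 reads against 11 (4.09-fold, 2.08 to 8.78), Col4a4 50 against 18 (2.84-fold, 1.63 to 5.17) and Col13a1, a transmembrane collagen, 46 against 17 (2.77-fold, 1.56 to 5.15). Col10a1 went the other way there, with 4 reads against 14, the 1 collagen gene whose young counting interval lay below 1. In old tumor-bearing tissue Col17a1 had 19 against 49 reads (3.83-fold lower, 2.22 to 6.89) and Col22a1 35 against 75 (3.18-fold lower, 2.11 to 4.90). Col4a4, with 84 against 14 reads, and Col4a6, with 73 against 18, were higher there, with counting intervals above 1. Exons of 13 collagen genes overlap those of another gene. The largest shared stretches were 563 bases for Col4a3, 234 for Col9a3 with Tcfl5 and 162 for Col6a4, all with genes on the opposite strand. Reads there cannot be assigned with certainty because the labels do not say whether the libraries kept strand. Strand would not separate Col20a1 from BX649560.1, which shares 79 exon bases with it on the same strand and had 375, 288, 245 and 286 reads against 134, 202, 183 and 503 for Col20a1, so the Col20a1 values are uncertain.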

How the data were processed

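RNA was sequenced from poly-A selected, paired-end Illumina libraries, and the protocol describes both strand-specific and unstranded preparation. The authors deposited 1 FPKM table per library. The submitters' processing notes name HISAT2 and the mm10 build, and the counter, annotation, filters and pooling are not given in the sources used here. Read counts were recovered as FPKM times the GENCODE M21 exon length times a divisor per library. This gave whole reads in all 4 libraries (within 0.03 reads or 2e-05 of the value) for 97.1% of the 32867 genes above 0 and for 42 collagen genes, and Col11a2 and Col17a1 were whole at another length. The divisors were 0.797 to 1.19 times the fragments in genes, so other scalings were tried. With 1 library a group no test between groups was made. Intervals are exact conditional binomial and cover counting error only. A count of 3 reads corresponds to 0.129 to 0.192 FPKM for a gene of 1 kb. Scripts were tested on simulated data. Alternatives were other pseudocounts, floors and scalings. Collagen genes reaching 1 FPKM are given in all libraries, and of every other list up to 4 genes with the largest ratio above the floor could be named. Others, such as Dcn, Lum, Acan, Matn1, Adamts2, Adamts3 and Lox, were chosen after their values were seen. The members and lists were chosen with earlier results of these data known. Python 3.11.15, pandas 2.3.3 and SciPy 1.17.1 were used.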

Additional observations from a re-analysis of the deposited data

Results flagged for a closer look

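For 8 collagen genes the counting interval of the tumor-bearing to naive ratio lay above 1 in young mice and below 1 in old mice, 8 of the 32 above the floor, against 11.5% of the 13911 protein-coding genes. The old log2 ratio minus the young one was -4.11 for Col24a1, -3.11 for Col19a1, -2.93 for Col26a1, -2.92 for Col6a1, -2.63 for Col6a2, -1.60 for Col23a1, -1.32 for Col27a1 and -1.23 for Col4a2. With 1 library a group the difference between ages was not tested. The old direction of Col27a1 and Col4a2 turned under other scalings of the libraries, and that of the other 6 did not. The old naive library held the highest value of Col24a1, Col19a1, Col26a1, Col6a1, Col6a2 and Col4a2, and the young tumor-bearing one that of Col23a1 and Col27a1. The old naive library was also the one almost without choroid plexus RNA, and the part of its make-up in these values was not tested.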

How the results depend on the processing

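No median or pooled ratio of the collagen genes changed direction, apart from the median of old against young tumor-bearing tissue, which was -0.042 without a floor. The counts of genes whose old ratio was at least 1 above or below the young one, 8 and 10, turned to 9 and 7 with median-of-ratios scaling and both scalings by fragments, to 9 and 8 with equal FPKM totals and to 7 and 3 with a floor of 5 FPKM. With a pseudocount of 1, 4 genes were at least 2-fold higher with tumor in young mice and 7 with age in naive mice, 2 were lower in old than in young tumor-bearing tissue, and the medians of the old tumor and the tumor-bearing age comparison were 0.51 and 0.19. With a floor of 5 FPKM the counts were 3 higher in young tumor-bearing, 9 higher and 2 lower in old tumor-bearing, 7 higher and 0 lower in old naive, and 0 lower in old against young tumor-bearing tissue, with medians of 2.04, 1.30 and 0.80 in the last 3 comparisons. Without a floor the medians were 0.36 for old tumor-bearing and 0.40 for old naive tissue. The old ratio was at least 1 below the young one for 16 genes without a floor and 3 with a floor of 5. The pooled ratio of summed FPKM was 1.89, 2.69, 1.99 and 2.83 in the 4 comparisons. With median-of-ratios scaling it was 1.84, 3.50 and 3.72 in the first, second and last, and the medians of the old tumor and tumor-bearing age comparisons were 1.19 and 0.68. Scaled by fragments in genes the pooled ratios were 1.97, 4.01, 1.81 and 3.68, and those medians 1.36 and 0.66. With equal FPKM totals they were 1.96, 3.63, 1.70 and 3.14, and 1.23 and 0.43, and 7 genes were at least 2-fold higher in old naive tissue. Scaled by fragments without mitochondrial and the 50 highest genes they were 1.95, 3.77, 1.82 and 3.52, and 1.28 and 0.60. Without Col2a1, a setting chosen after seeing the data, the pooled ratio was 2.11 for old tumor-bearing and 2.23 for old against young tumor-bearing tissue. The counts did not change when the counting interval also had to exclude 1. No paired analysis was possible because each group has 1 library, which also leaves the spread between mice unmeasured.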
